A study of Homo sapiens with 6 samples.

Results

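The genes described here encode 8 proteins that mature, cap or chaperone the small nuclear RNAs U6 and 7SK. They were chosen by name as LARP7, MEPCE, SSB, USB1, TUT1, SART3, HEXIM1 and HEXIM2, and all 8 were found among the 58735 genes of the deposited expression table. RNA-seq had been performed on PANC-1, a line of human pancreatic ductal carcinoma cells that was kept in DMEM with fetal bovine serum. Silencing of METTL16 by siRNA (si-METTL16, 3 samples, called silenced and numbered as their replicates here) was compared with a control siRNA (si-NC, 3 samples, called control); another label of the control samples reads WT. The methods call the transfection stable and describe puromycin selection for knockdown cells made with hairpin RNA; they do not say whether the sequenced cells were selected. The methods call the 3 samples of a group biological triplicates of a single cell line, and the time between transfection and harvest is not given in the sources used here.

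METTL16 is an RNA methyltransferase that places an N6-methyl group on an adenosine of U6, the spliceosomal RNA that pairs with the 5′ splice site. A new U6 transcript ends in a run of uridines, which the La protein (SSB) binds, TUT1 lengthens and USB1 trims, before the LSM ring takes the 3′ end and SART3 helps U6 anneal to U4. 7SK is another RNA polymerase III transcript. MEPCE caps its 5′ end and LARP7 holds its 3′ end, and the HEXIM proteins use it to keep the elongation kinase P-TEFb inactive. MEPCE also caps U6, and LARP7 also binds U6 and helps to guide its 2′-O-methylation.

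The U6 genes themselves were almost unread in these libraries, so the mRNAs of the processing proteins were measured here and U6 was not. RNU6-1 and RNU6-7 had 0 counts in every sample, RNU6-2 and RNU6-9 had 1 count each over all 6 samples, and RNU6-8 had 7. The table lists 1276 genes with names starting RNU6-, of which 105 had any count, and their summed counts were 37, 49 and 50 in control samples 1, 2 and 3 against 43, 43 and 47 in silenced samples 1, 2 and 3. None of these 1276 genes passed the filter on low counts. The minor spliceosomal RNU6ATAC had 3 counts in all. RN7SK, the 7SK gene, had 16, 9 and 23 counts in control samples and 19, 14 and 27 in silenced samples. The groups overlapped, and the log2 fold change of 0.35 (SE, the standard error, 0.40, adjusted p = 0.525 by edgeR) had a 95% interval from -0.58 to 1.29. The labels name an mRNA library kit, and its part in these low counts was not tested. The pseudogenes named RN7SKP, 293 in the table, shared between 9 and 23 counts per sample, so reads of 7SK and of its copies may have been split.

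Counts per sample summed to between 15725298 and 18054436, where 3 counts equal 0.166 to 0.191 CPM (counts scaled to a common library total, with TMM factors). The common biological coefficient of variation was 16.5%. METTL16 itself had 1546, 1641 and 1764 counts in control samples 1, 2 and 3 and 571, 528 and 627 in silenced samples 1, 2 and 3. Its log2 fold change of -1.48 (SE 0.07, adjusted p = 8.3e-05 by edgeR) left 35.9% of the control level. Among defining markers, KRT8, KRT18, KRT19 and SOX9 of pancreatic duct cells were read in every sample, while KRT7 stayed at or under 1.1 FPKM and EPCAM at or under 2.93 FPKM. The 6 duct markers summed to 352 to 453 FPKM (counts per kilobase of gene length, scaled to the library total) in si-NC and 361 to 399 in silenced samples. Of these 6, KRT19 (log2 fold change -1.40, adjusted p = 0.00111 by edgeR), KRT7 (-0.84, 0.0117) and SOX9 (-0.25, 0.00987) were called lower after silencing. KRT8 (-0.23), KRT18 (0.20) and EPCAM (0.44) were not called. Acinar markers (4 genes, 2 at 0 in every sample) summed to at most 0.0409 FPKM, islet markers (3 genes, 1 at 0) to at most 0.481 and endothelial markers (3 genes) to at most 0.0696. The 4 leukocyte markers (1 at 0) summed to 1.2 to 1.21 in control and 1.63 to 1.99 in silenced samples, nearly all from CD68. The 4 fibroblast markers summed to at most 28.9 in control and to 60.8 to 64.4 in silenced samples, almost entirely from COL1A1, while COL1A2 and DCN had at most 2 counts in any sample.

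All 8 genes passed the filter on low counts, and 4 of them were called at an adjusted p under 0.05 by the quasi-likelihood test of edgeR, with Benjamini-Hochberg correction over 15089 genes. SART3 and HEXIM1 were higher after METTL16 silencing, and SSB and TUT1 were lower. LARP7, MEPCE, USB1 and HEXIM2 were not called. Over all genes tested, 35.9% were called, 18.4% higher and 17.5% lower, so 2 of 8 in each direction is close to that background. The samples of the groups did not overlap for 5 of the 8 genes, SSB, TUT1, SART3, HEXIM1 and LARP7, against 50.9% of all genes. The median size of the log2 fold change, regardless of sign, was 0.32 for the 8 genes and 0.33 for all genes, and the signed medians were 0.17 and -0.00. Of the 8 genes, SSB and SART3 kept their calls in every fit that was tried, while the calls of TUT1 and HEXIM1 depended on the fit and are described with their limits. In bulk RNA, fewer cells that express a gene and less RNA per cell cannot be told apart.

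**Figure D1:**
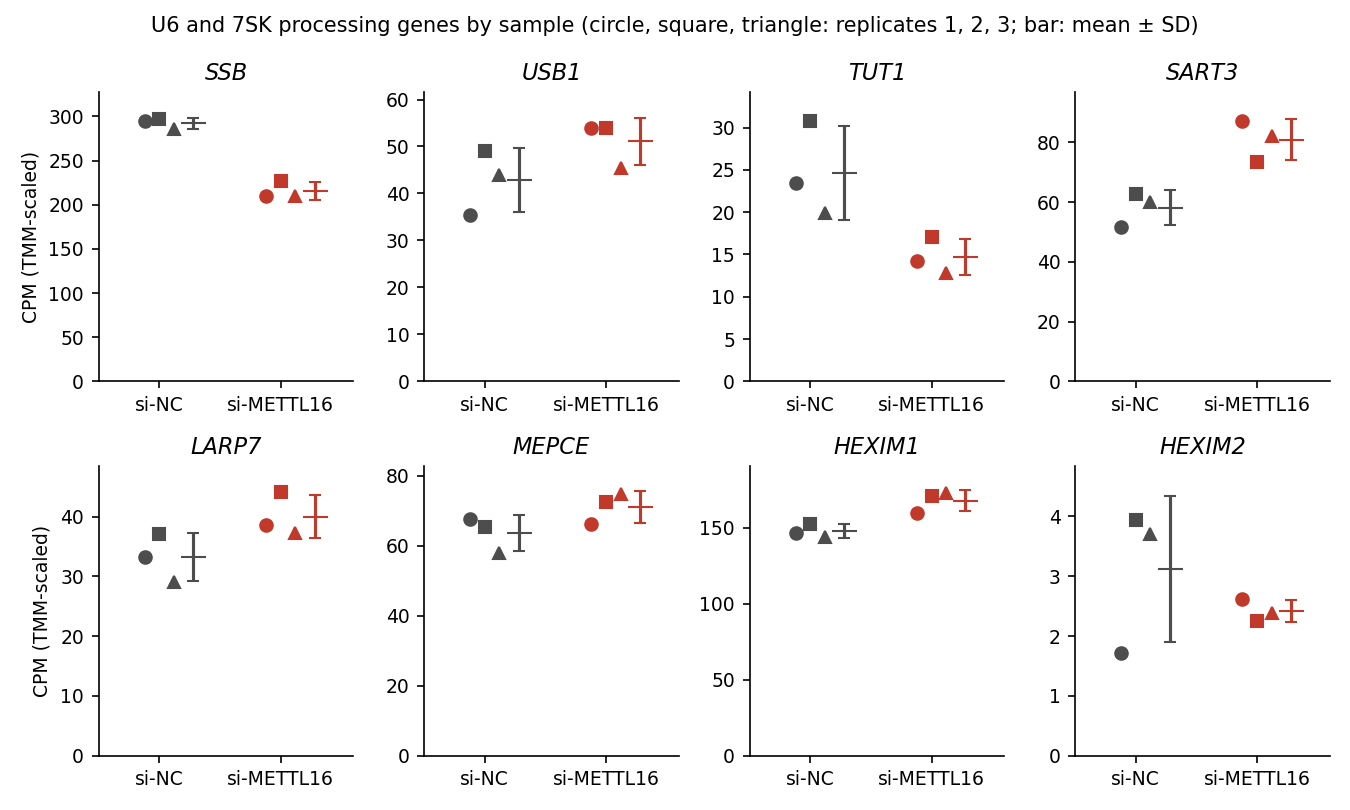
CPM of each of the 8 genes in the 3 si-NC (grey) and 3 si-METTL16 (red) samples; every vertical axis starts at 0, symbols mark replicates and the bar gives mean ± SD. SSB and TUT1 sit lower and SART3 and HEXIM1 higher in all si-METTL16 samples, while MEPCE, USB1 and HEXIM2 overlap between the groups.

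SSB encodes the La protein, which binds the uridine run at the 3′ end of new RNA polymerase III transcripts, U6 among them. It lies on chromosome 2 from 169791933 to 169812064 (GRCh38). Its levels were 294.93, 297.04 and 285.21 CPM in control samples 1, 2 and 3 and 209.58, 227.1 and 210.29 CPM in silenced samples 1, 2 and 3. Every silenced sample was below every control sample, and the gap between the groups was wider than the range within either of them. The mean fell from 292 ± 6.31 to 216 ± 9.92 CPM (SD, n = 3 in each group). The log2 fold change was -0.44 (SE 0.06, 95% interval -0.57 to -0.31, adjusted p = 0.00116 by edgeR), leaving 73.8% of the control level. Its end overlaps METTL5, another RNA methyltransferase gene, which lies on the opposite strand and shares 572 exonic bases with it. The sources used here do not say whether counting used strand. METTL5 had 658, 741 and 654 counts in control and 803, 769 and 813 in silenced samples (log2 fold change 0.26, SE 0.09, adjusted p = 0.0584 by edgeR), so it differed in the other direction. With the counts of METTL5 added to those of SSB, the log2 fold change was -0.34 (SE 0.05, adjusted p = 0.00347 by edgeR), and SSB was also called in each fit without a sample, at -0.48 to -0.42.

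TUT1, the terminal uridylyltransferase that lengthens the U6 tail, lies on chromosome 11 from 62575045 to 62592177 on the minus strand. It was read at 23.434, 30.759 and 19.851 CPM in control samples 1, 2 and 3 and at 14.199, 17.055 and 12.851 CPM in silenced samples 1, 2 and 3. The groups did not overlap, with 24.7 ± 5.56 CPM in control and 14.7 ± 2.15 CPM in silenced samples (SD, n = 3 each). Its log2 fold change was -0.75 (SE 0.19, 95% interval -1.18 to -0.31, adjusted p = 0.0183 by edgeR). This difference cannot be read as less TUT1 transcript without a second gene of the annotation. AP002990.1 (ENSG00000255508, annotated as protein coding, chromosome 11 from 62559603 to 62591531) lies on the same strand, shares 1648 exonic bases with TUT1 and also covers most of EEF1G, a translation elongation factor gene. AP002990.1 had 51, 20 and 179 counts in control and 253, 36 and 355 counts in silenced samples. Within each group, the order of the samples by AP002990.1 was the reverse of their order by TUT1, and si-NC replicate 3 and si-METTL16 replicates 1 and 3 had the most AP002990.1. Its own log2 fold change of 1.38 (SE 0.88, adjusted p = 0.264 by edgeR) did not pass the test.

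With the counts of AP002990.1 added, TUT1 had 447, 542 and 527 counts in control and 486, 302 and 586 in silenced samples. The groups then overlapped, the lowest sample being si-METTL16 replicate 2 and the highest si-METTL16 replicate 3. For the sum, the log2 fold change was -0.12 (SE 0.19, adjusted p = 0.671 by edgeR). A lower TUT1 count after silencing and a different split of shared reads between the overlapping annotations cannot be told apart in a table of counts per gene. The call was also lost without si-METTL16 replicate 1 (log2 fold change -0.73, adjusted p = 0.0549 by edgeR) and without si-METTL16 replicate 3 (-0.66, adjusted p = 0.0603). EEF1G had 10643, 10854 and 10552 counts in control and 8653, 9038 and 9253 in silenced samples (log2 fold change -0.21, SE 0.06, adjusted p = 0.0344 by edgeR). Reads of EEF1G may also be among those counted for AP002990.1, which was not tested. The sum is therefore not a corrected level of TUT1.

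**Figure D2:**
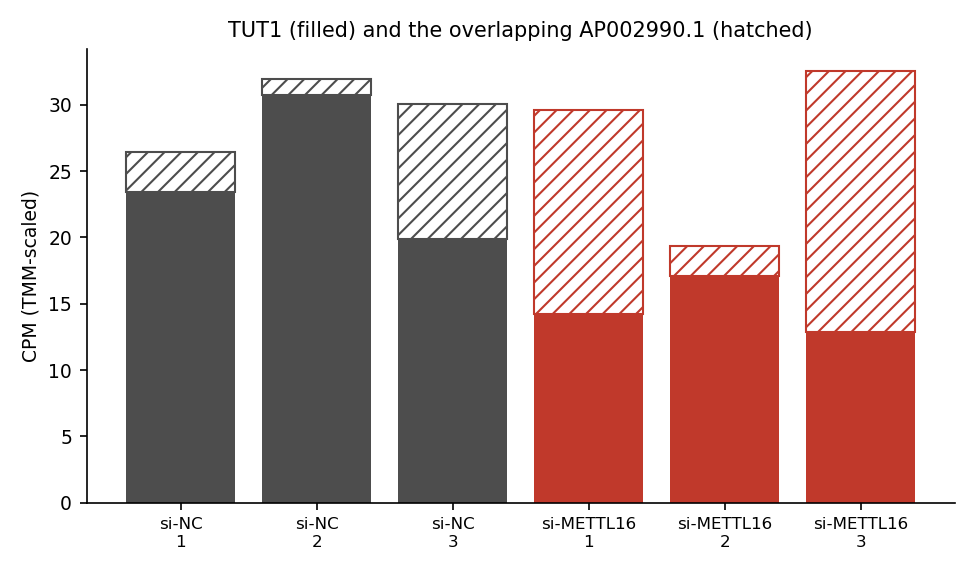
CPM of TUT1 (filled) with that of the overlapping AP002990.1 (hatched) stacked on it, in each sample; the vertical axis starts at 0. The filled parts are lower in every si-METTL16 sample, while the whole bars of the groups overlap, with the lowest and the highest bar both in si-METTL16.

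USB1, the exonuclease that trims the uridine tail of U6 and leaves a cyclic phosphate, lies on chromosome 16 from 57999546 to 58021618. Its levels were 35.506, 48.967 and 43.922 CPM in control and 53.995, 53.859 and 45.396 CPM in silenced samples. The groups overlapped, because si-METTL16 replicate 3 was below si-NC replicate 2. The log2 fold change of 0.25 (SE 0.13, 95% interval -0.06 to 0.57, adjusted p = 0.181 by edgeR) spans 95.8% to 149% of the control level. The opposite-strand ZNF319 shares 210 exonic bases and was counted at 70 to 157 per sample. Adding its counts moved the log2 fold change of USB1 to 0.16 (adjusted p = 0.269 by edgeR), and leaving out si-NC replicate 1 moved it to 0.13 (adjusted p = 0.423), with no change of call in either case.

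SART3, the chaperone that recycles U6 by annealing it to U4, lies on chromosome 12 from 108522580 to 108561400. It was read at 51.779, 62.873 and 59.951 CPM in control samples 1, 2 and 3 and at 87.086, 73.35 and 82.281 CPM in silenced samples 1, 2 and 3. Every silenced sample was above every control sample, and means were 58.2 ± 5.75 and 80.9 ± 6.97 CPM (SD, n = 3 each). Its log2 fold change was 0.48 (SE 0.10, 95% interval 0.24 to 0.71, adjusted p = 0.0101 by edgeR), or 139% of the control level. SART3 was called in every fit without a sample, at 0.393 to 0.539. Only 21 exonic bases are shared with FICD on the opposite strand, which had at most 194 counts in a sample.

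LARP7, the La-related protein that stays bound to the 3′ end of 7SK, lies on chromosome 4 from 112636964 to 112657592. Its levels were 33.198, 37.182 and 29.148 CPM in control and 38.576, 44.113 and 37.274 CPM in silenced samples. The groups were apart only by the step from si-NC replicate 2 to si-METTL16 replicate 3. LARP7 was not called, its log2 fold change being 0.27 (SE 0.12, 95% interval -0.00 to 0.54, adjusted p = 0.113 by edgeR).

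MEPCE, the methylphosphate capping enzyme of 7SK and U6, lies on chromosome 7 from 100428790 to 100434126. It was read at 67.816, 65.348 and 57.898 CPM in control and at 66.122, 72.517 and 74.937 CPM in silenced samples, and the groups overlapped. The log2 fold change of 0.16 (SE 0.09, 95% interval -0.04 to 0.37, adjusted p = 0.193 by edgeR) did not pass the test. Its interval runs from 96.9% to 129% of the control level, and without si-NC replicate 3 the log2 fold change was 0.095.

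The levels of LARP7 and MEPCE, which together form the stable core of the 7SK particle, were also set against each other within each sample. The LARP7 to MEPCE ratio of FPKM values was 0.421, 0.489 and 0.433 in control and 0.502, 0.523 and 0.428 in silenced samples. The ratios overlapped, and their log2 values differed by 0.111 (two-sided exact permutation test, p = 0.3, where 3 against 3 samples cannot go below 0.1). Leaving out single samples gave differences from 0.0523 (without si-METTL16 replicate 2) to 0.197 (without si-METTL16 replicate 3). The ratio was not distinguished between the groups.

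HEXIM1 inhibits P-TEFb when bound to 7SK. It is a gene without introns on chromosome 17 from 45148502 to 45152101. Its levels were 146.7, 152.56 and 143.57 CPM in control and 159.61, 170.68 and 172.57 CPM in silenced samples. The groups did not overlap, with means of 148 ± 4.56 and 168 ± 7.004 CPM (SD, n = 3 each). The log2 fold change was 0.18 (SE 0.06, 95% interval 0.05 to 0.32, adjusted p = 0.0443 by edgeR), or 114% of the control level. This small rise stood close to the threshold. It was not called by DESeq2 (log2 fold change 0.18, adjusted p = 0.0698), nor by limma on log2(FPKM + 1) (0.16, adjusted p = 0.0541), and it was called without si-METTL16 replicate 1 but in none of the other 5 fits that left out a sample, which had adjusted p from 0.0663 to 0.148. Blocking on the replicate number gave 0.18 (adjusted p = 0.0678 by edgeR).

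HEXIM2, the paralog that can take the place of HEXIM1 in the 7SK particle, lies next to it on chromosome 17 from 45160700 to 45170040. It had only 29, 67 and 65 counts in control and 43, 35 and 43 in silenced samples, or 1.7161, 3.948 and 3.7077 against 2.6205, 2.2441 and 2.3922 CPM. The lowest value of all was si-NC replicate 1, and the other si-NC samples were above every si-METTL16 sample. The log2 fold change of -0.37 (SE 0.33, 95% interval -1.14 to 0.40, adjusted p = 0.417 by edgeR) did not pass the test. It moved to -0.67, -0.17 and -0.23 without si-NC replicate 1, 2 and 3 respectively, and was not called in any of these fits (adjusted p = 0.0581, 0.756 and 0.695 by edgeR).

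The HEXIM1 to HEXIM2 ratio of FPKM values was 126, 56.9 and 57.0 in control and 89.7, 112 and 106 in silenced samples. The highest and the lowest ratio were both in si-NC, and the log2 ratios of 6.21 ± 0.66 and 6.67 ± 0.167 (SD, n = 3 each) differed by 0.462 (two-sided exact permutation test, p = 0.4). That difference was 0.843 without si-NC replicate 1, 0.27 without si-NC replicate 2 and 0.272 without si-NC replicate 3. Per kilobase of the MANE Select transcripts, the ratios were lower, at 15.3 to 33.9 in control and 24.1 to 30.1 in silenced samples, with the same difference between the groups.

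**Figure D3:**
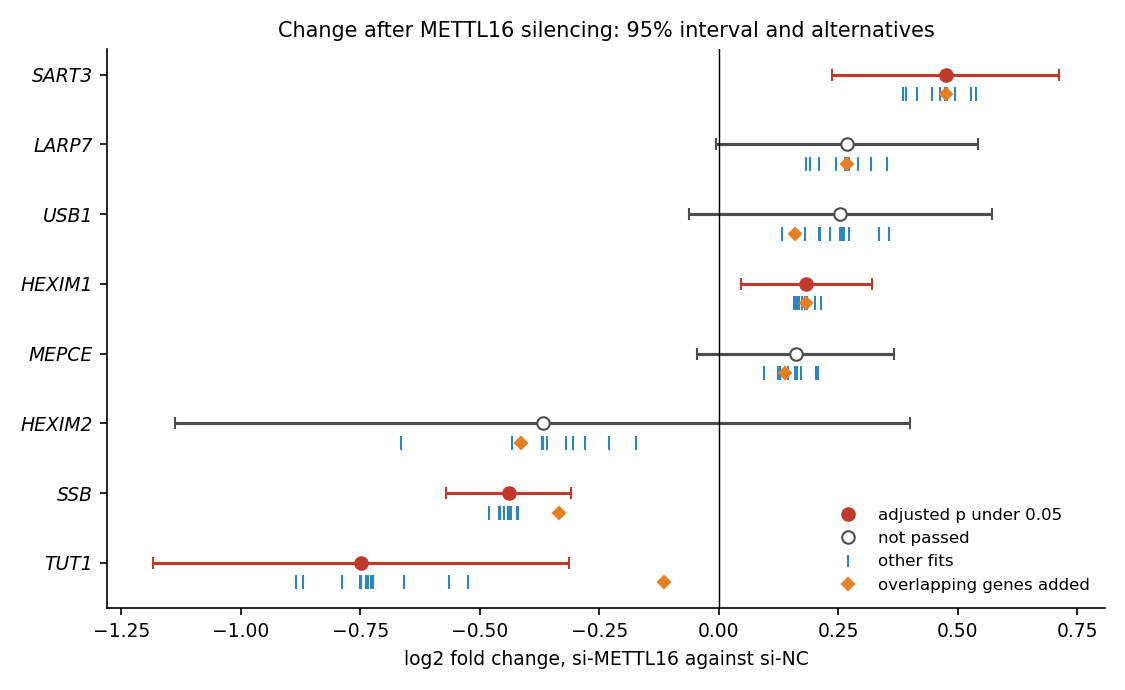
Log2 fold changes of the 8 genes with their 95% intervals (filled and red where adjusted p was under 0.05), and below each the values under the other fits (blue ticks) and with counts of overlapping genes added (orange diamonds). The orange diamond of TUT1 lies at -0.12, outside its interval, while those of SART3, LARP7 and HEXIM1 lie on their own estimates.

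Levels between the genes can be compared only per length, and the deposited FPKM values are a poor base for that. The length implied by count and FPKM matched, in the median, the summed length of the distinct annotated exons of a gene (ratio 1.0 over 14048 genes). In such a sum, bases shared by overlapping exons with different ends are counted repeatedly. For MEPCE the implied length was 6203 bases in a locus of 5337, and for USB1 it was 15140 bases where the MANE Select transcript, the reference isoform, has 2248. Per kilobase of the MANE Select transcript, SSB was highest in si-NC cells at 177 ± 3.82 CPM, followed by HEXIM1 at 40.7 ± 1.26 and MEPCE at 22.6 ± 1.83. USB1 (19.04 ± 3.03), LARP7 (15.7 ± 1.91) and SART3 (14.0 ± 1.38) came next, then TUT1 (9.12 ± 2.06) and HEXIM2 (2.18 ± 0.853; SD, n = 3 for each). The samples of MEPCE and USB1 overlapped, as did those of USB1 and LARP7 and of LARP7 and SART3, so these neighbours were not separated. On the FPKM scale HEXIM1 (41.2 ± 1.25) and SSB (40.8 ± 0.845) stood level instead. In si-METTL16 cells the order per kilobase of the MANE Select transcript was SSB at 131 ± 6.01 CPM, HEXIM1 at 46.2 ± 1.93, MEPCE at 25.2 ± 1.61, USB1 at 22.7 ± 2.19, SART3 at 19.5 ± 1.68, LARP7 at 18.98 ± 1.72, TUT1 at 5.44 ± 0.794 and HEXIM2 at 1.68 ± 0.132. MEPCE, USB1, SART3 and LARP7 again overlapped with their neighbours. On the FPKM scale HEXIM1 (46.2 ± 2.15) was above SSB (29.6 ± 1.40) in these cells, the reverse of the order per kilobase of the MANE Select transcript.

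METTL16 methylates an A within the U6 nonamer TACAGAGAA, which was searched on the sense strand of the MANE Select transcripts of the 8 genes (GENCODE v44). Of the 8 transcripts, that of HEXIM2 alone held it, at positions 1403 to 1411 of 1436 in the 3′ UTR. The match is shown with its flanks, the nonamer in capitals.
HEXIM2: tcttacccttTACAGAGAAattaaatggc
Of the MANE Select transcripts of 12383 genes tested, 491 (3.97%) held the same letters. A match says nothing of methylation, which was not measured in these libraries.

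The sequences of 3 siRNAs against METTL16 are given by the study, and the ones used for sequencing are not named. The titles of the silenced samples are numbered 1 to 3 as these siRNAs are, so samples of the same siRNA and samples of different siRNAs cannot be told apart. Their target sites in the METTL16 coding sequence are shown because a siRNA can also act on other transcripts through its seed, and the capitals mark the bases opposite the seed of the guide strand.
METTL16-1: ccttgagactcAACTATAt
METTL16-2: ccgcctagttcTGTTAATa
METTL16-3: ccaccaagtaaGCGAAGAa
None of these capital stretches, searched in the sense direction, occurred in the 3′ UTR of any of the 8 genes, while the 3′ UTRs of 12379 genes held them in 11.4%, 20.4% and 1.49% of cases. The longest run that any of the 8 transcripts shared with a target was 9 of 19 bases.

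The genes around U6 and 7SK were followed in 10 lists of 98 genes, all of which passed the filter. Of these, 37 (37.8%) were called, 26 higher (26.5%) and 11 lower (11.2%), against 18.4% and 17.5% of all genes. Most called genes are named below with their list; those beyond the naming rule were named after their values were seen.

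Genes of the proteins that take over U6 after its maturation were called in the higher direction only in the main edgeR fit. Of 13 genes, those of the LSM ring and the U4/U6 particle with RBM22 added, 6 were higher, 0 were lower and 7 were not called. Their median log2 fold change was 0.29. PPIH, a cyclophilin of the U4/U6 particle, went from 27.1, 33.9 and 32.6 CPM in control to 66.7, 68.5 and 70.4 CPM in silenced samples. The silenced samples lay close together and far above the controls (log2 fold change 1.13, SE 0.10, adjusted p = 3.2e-04 by edgeR). Its partners in the particle PRPF3 (log2 fold change 0.63), PRPF4 (0.38) and PRPF31 (0.23) were also higher, as were LSM3 of the ring (0.38) and RBM22 (0.29), which contacts U6 in the active spliceosome. LSM6 had the lowest value of the list, -0.43, with groups that did not overlap. It lay just above the threshold and did not pass the test (adjusted p = 0.052 by edgeR). Leaving out single samples, 4 to 7 of the 13 were called. With the replicate block, DESeq2 or limma, 7 were called, and the direction of those called only there is not given here. PRPF4 lost its call without si-NC replicate 3 (0.37), and PRPF31 kept its call only without si-NC replicate 1 (0.27).

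The machinery that transcribes U6 and 7SK did not move one way. Of 11 transcription factors and regulators, 2 were higher and 2 lower. SNAPC2 (log2 fold change -0.77) and SNAPC5 (-0.63) of the snRNA activating complex were lower, while its subunit SNAPC3 (0.35) and MAF1 (0.35), a repressor of RNA polymerase III, were higher. Only 2 of the 11 were called without si-NC replicate 2 or without si-METTL16 replicate 3. Of 18 subunits of RNA polymerase III, 2 were higher, among them CRCP (0.74), and 3 lower, POLR1C (-0.43), POLR3GL (-0.43) and POLR2F (-0.36). POLR2L, the subunit with the highest FPKM, had -0.22 and did not pass the test (adjusted p = 0.0626 by edgeR). It was called without si-NC replicate 1 (-0.295, adjusted p = 0.022 by edgeR) and by limma on log2(FPKM + 1) (-0.239, adjusted p = 0.0489). Without si-NC replicate 3 or si-METTL16 replicate 1, 3 of the 18 were called. POLR3GL lost its call in those fits (-0.46 and -0.39) and without si-NC replicate 2 (-0.37) or si-METTL16 replicate 3 (-0.39).

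Relatives of the 8 genes were read in 4 lists. Of 5 other La-related proteins, LARP6 (log2 fold change 0.60), which binds collagen mRNAs, and LARP1B (0.35) were higher. LARP1, a regulator of ribosomal protein mRNAs and the list member of highest FPKM, was at 0.01, and its sign turned with the fit. The call of LARP1B was lost without si-NC replicate 1 (0.30), 2 (0.36) or 3 (0.37) or si-METTL16 replicate 2 (0.27). Of 8 other terminal nucleotidyltransferases, TENT4A (0.94), TENT4B (0.56) and the mitochondrial MTPAP (0.30) were higher and TUT7 (-0.37) was lower. PAPOLA, the main poly(A) polymerase, had -0.12 and did not pass the test. Only 2 of the 8 were called without si-NC replicate 1, 2 or 3 or without si-METTL16 replicate 2. Of 9 exonucleases that trim small RNAs, PARN, a deadenylase, was lower (-0.36) and the others were not called. Without si-NC replicate 3 or si-METTL16 replicate 3, 2 of the 9 were called. Of 6 other enzymes that modify U6 or assist its modification, the 2′-O-methyltransferase FBL was higher (0.35) and its partner NOP58 lower (-0.30). NOP58 kept its call only without si-NC replicate 3 when single samples were left out, and lost it with the replicate block (-0.29, adjusted p = 0.0517 by edgeR).

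On the 7SK side, the mRNA of the kinase that the particle holds was higher. CDK9, the catalytic subunit of P-TEFb, was read at 22.0, 22.7 and 21.7 CPM in control and 31.0, 33.3 and 31.9 CPM in silenced samples, with no overlap and little spread (log2 fold change 0.53, SE 0.08, adjusted p = 0.00227 by edgeR). CCNT1, its cyclin, was also higher (0.39), as were the super elongation complex genes MLLT1 (0.45), ELL (0.40) and AFF4 (0.25). The call of ELL was kept only without si-NC replicate 2 or si-METTL16 replicate 1 among the 6 such fits. ELL2, an elongation factor of the same complex, was lower (-0.36). In all, 5 of the 13 genes of this list were higher and 2 lower, ELL2 among the latter, while its median log2 fold change was negative, at -0.12, because 5 of the 6 genes that did not pass the test had negative values.

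Of 9 proteins that remodel 7SK or release P-TEFb, 4 were higher and 1 lower. The higher ones were RBM7 (log2 fold change 0.68), HNRNPA2B1 (0.36), the helicase DDX21 (0.31) and JMJD6 (0.30). JMJD6 lost its call without si-NC replicate 2 (0.28) or 3 (0.29) or si-METTL16 replicate 1 (0.28) or 3 (0.27). HNRNPR, another 7SK-binding protein, was lower (-0.33). Of the 6 subunits of DSIF and NELF, the pausing factors that P-TEFb phosphorylates, NELFB was higher (0.62). SUPT5H, the subunit with the highest FPKM, had 0.10 and was not called (adjusted p = 0.166 by edgeR).

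**Figure D4:**
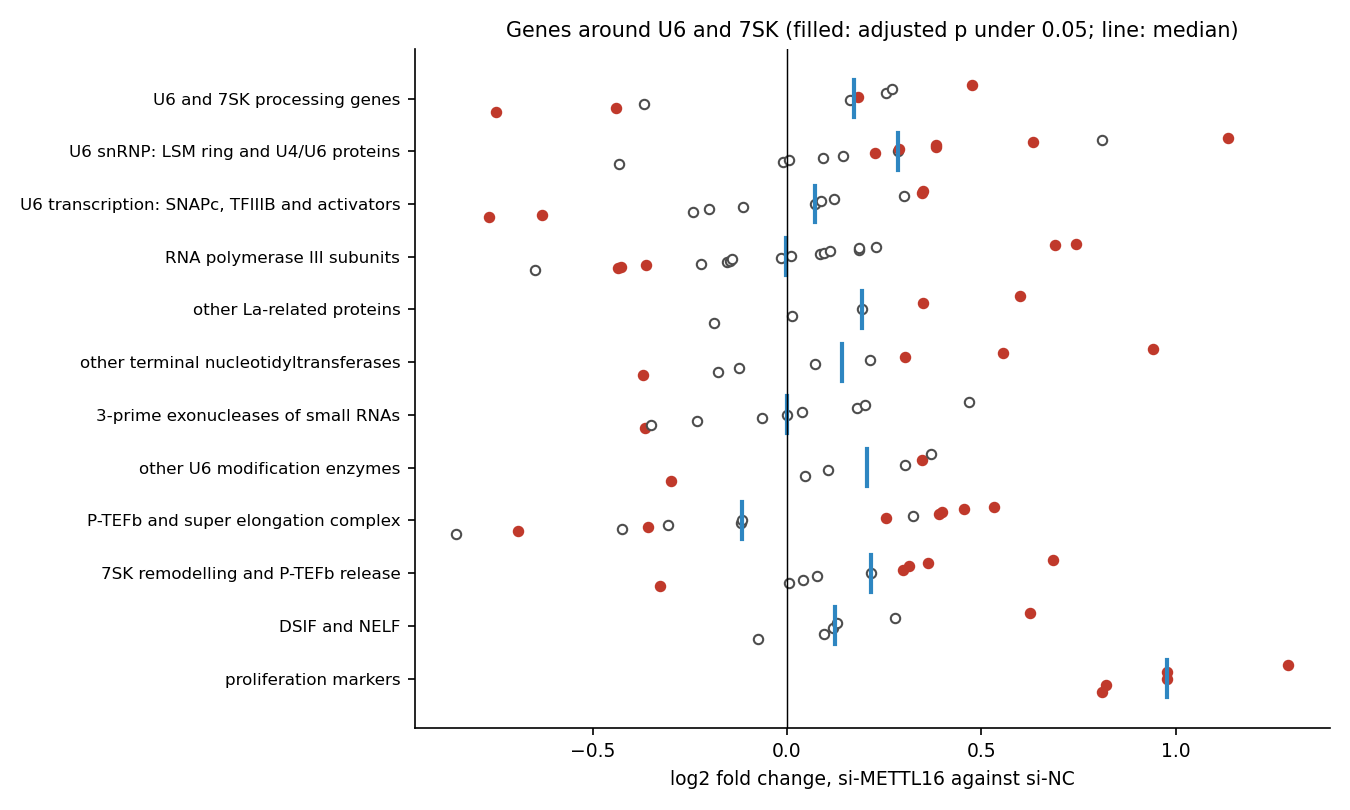
Log2 fold changes of the 8 genes and of each list around them, si-METTL16 against si-NC; filled red points had an adjusted p under 0.05 and blue lines mark medians. The U6 particle list has 6 filled points, all above 0, while the transcription lists and the P-TEFb list have filled points on both sides. The 5 proliferation markers have the highest median, though PPIH of the U6 particle list lies above most of them.

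Proliferation markers moved with the groups as well. MKI67 was read at 169, 170 and 218 CPM in control and 378, 396 and 323 CPM in silenced samples, and all 5 markers (MKI67, TOP2A, PCNA, MCM2 and CCNB1) were higher, with log2 fold changes from 0.81 to 1.29. Their part in the differences of the genes above was not tested.

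Among 7294 protein-coding genes at or above the median CPM, those whose 6 values lay closest to each called gene were found by the root mean square difference of log2 CPM, each gene taken relative to its si-NC mean. SSB was closest to C5orf15 (0.0248) and RBM19 (0.0296), and SART3 to TSTD2 (0.0595) and RUNX1 (0.0614). HEXIM1 was closest to RPL24 (0.0166) and NAA10 (0.0241). TUT1 had no gene as close, its nearest being NDUFB1 (0.141) and SP100 (0.149). This distance includes the spread within groups. The coefficient of variation of TUT1 was 22.5% in control and 14.6% in silenced samples, above those of SSB, SART3 and HEXIM1.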

How the data were processed

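RNA-seq data of 6 PANC-1 samples were used, with groups and replicate numbers from the sample titles. Raw, unnormalized gene counts were deposited by the authors, together with FPKM values, in which each count is divided by a gene length and a library total. HISAT2 2.0.4, StringTie 1.3.0 and the build GRCh38 are named in the submitters' processing notes, without their roles; the use of strand is not given in the sources used here. A spreadsheet had turned 27 symbols into dates, which were restored from the gene identifiers.

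Counts were scaled by TMM, filtered by filterByExpr (minimum count 10, minimum total 15) and tested by edgeR 4.0.16 (R 4.3.3), using glmQLFit, glmQLFTest and Benjamini-Hochberg correction over 15089 genes. The study names limma; a count test was used because counts were deposited, and limma 3.58.1 and DESeq2 1.42.0 were alternatives. The standard error is the log2 fold change over the square root of F. Ratios were compared by two-sided exact permutation tests in scipy 1.17.1. The edgeR p-values set a group difference against the spread among these 3 samples per group, estimated with information from all genes tested. Those of the ratios come from reassigning the samples to the groups. No pair of samples agreed within sampling noise, the lowest chi-square per degree of freedom being 14.7.

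In simulated counts of 15089 genes, the test found 119 of 200 genes changed 2-fold, each in its true direction, and wrongly called 6 others. Only these 200 genes were changed there, while 35.9% of genes were called in the data. The share found therefore does not carry over to this comparison.

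The 8 genes and the lists around them, written from general knowledge, were chosen with earlier results of these data known. Named genes were all 8; METTL16; the U6 and 7SK genes; from each list up to 4 called genes with groups apart, by smallest p, and the member of highest FPKM; and the 2 genes closest to each called gene. Coordinates are those of the deposited table. They equal GENCODE v44 for SSB, USB1, HEXIM2, METTL16 and the U6 and 7SK genes; those of LARP7, MEPCE, TUT1, SART3 and HEXIM1 differ from it at an end. A few genes and a sequence that the rule would name are not reported here. Sequences were read from GENCODE v44 and GRCh38.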

Additional observations from a re-analysis of the deposited data

How the results depend on the processing

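The 8 genes kept the sign of their log2 fold change in every alternative that gave them a value; HEXIM2, at a mean under 1 FPKM, was left out of the 2 FPKM fits. Between 2 and 4 of them were called, 2 to 3 without a sample and 2 without si-METTL16 replicate 3. SSB (-0.48 to -0.335) and SART3 (0.386 to 0.539) kept their calls throughout. HEXIM1 lost its call with no filter on low genes (0.181, adjusted p = 0.0948), DESeq2 (0.184), limma on log2(FPKM + 1) (0.158) or log2(FPKM + 0.1) (0.161), and in 5 of 6 fits without a sample; these 6 fits ran from 0.162 to 0.214, and the highest kept the call. The cause was not tested. TUT1 lost its call in 2 fits without a sample (-0.728 and -0.658; all 6 such fits ran from -0.885 to -0.565) and with the counts of AP002990.1 added (-0.115), an alternative chosen after seeing the data, as was the MANE length of the ratios. LARP1, not called in any fit, turned negative on log2(FPKM + 1) (-0.00908) and log2(FPKM + 0.1) (-0.0093) and in 2 fits without a sample (-0.0362 and -0.0578, where all 6 such fits ran up to 0.0634). Of the named list genes, PRPF4 lost its call in 1 of the 6 fits without a sample, and PRPF31, SNAPC3, MAF1, POLR2F, POLR3GL, LARP1B, TENT4B, MTPAP, TUT7, NOP58, ELL and JMJD6 in 2 to 5. POLR2L gained a call in 3 alternatives. Between 28 and 39 of the 98 list genes were called, and between 4159 and 5487 of all genes. Depth limits HEXIM2, RN7SK and the U6 genes.

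Whether the replicate numbers pair the samples was not settled. Same-numbered samples correlated weakly, at 0.0253 to 0.0371, in their deviations from the group means, against -0.0388 to 0.00827 for other pairs between the groups. Each sample correlated best with its own number, a hint from the data only. With the replicate block, 5013 genes were called, 4731 of them also without it. Among the 8 genes HEXIM1 alone changed call (0.183, adjusted p = 0.0678 by edgeR). Of the called list genes, NOP58 and PRPF31 (0.227, adjusted p = 0.0613 by edgeR) lost their calls. The U6 particle list had 7 called genes with the block against 6 without it, so other genes of that list gained a call.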
